A study of Homo sapiens with 36 samples.

Results

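The effect of KDM5A knockdown on the transcriptome was compared between MDA-MB-231 and 293T cells. It was taken from 18 of the 36 RNA-seq libraries of the series, all those that carried a KDM5A shRNA or its control, with 9 from each line. MDA-MB-231 is an established line from a human triple-negative breast cancer, and 293T is an established line from human embryonic kidney cells that carries the SV40 large T antigen. In each line 3 libraries came from cells with shKDM5A-1, 3 from cells with shKDM5A-2 and 3 from cells with a control shRNA (shControl). Both lines grew in DMEM with 10% serum and 1% antibiotics, and 1 µg of RNA went into each NEBNext Ultra II library. Not given in the labels are the shRNA sequences, the time after their delivery, pool or clone, and whether separate cultures stand behind the 3 libraries of each group. The p-values therefore measure only the spread between these libraries, which may be technical.

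KDM5A removes methyl groups from lysine 4 of histone H3, a mark of active promoters, and belongs with KDM5B and KDM5C to a family of JmjC enzymes that need oxygen and 2-oxoglutarate. It binds the retinoblastoma protein and works with SIN3 and histone deacetylase complexes, and it has been studied in breast cancer for its part in drug tolerance and metastasis. The series links KDM5A to EglN2, a prolyl hydroxylase, and to hydroxylation of proline 16 of histone H3. The comparison asks which genes answered to the loss of KDM5A differently in a cancer line and in a kidney-derived line.

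The counts of each line are held in a table of its own, with 14803 genes in both. Library totals were 14850567 to 19661516 counts in MDA-MB-231 and 17176744 to 23417896 counts in 293T. All 18 libraries were fitted together, which tested 14767 genes. Levels are given as CPM, counts scaled to a common library total by edgeR, and effects as log2 fold changes of shKDM5A over shControl with their standard errors (SE). The difference between lines is the mean effect of both shRNAs in MDA-MB-231 minus the mean effect in 293T. It is positive where KDM5A knockdown moved a gene further up, or less far down, in MDA-MB-231. A call needed an edgeR quasi-likelihood adjusted p under 0.05, and a gene responded in a line when both shRNAs were called with the same sign. Both shRNAs of a line share the same 3 controls, so their agreement is not independent.

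The lines carried the markers of their labels. All 12 markers of MDA-MB-231, among them VIM, CD44 and AXL, stood above 1 CPM in every MDA-MB-231 shControl library, and all 12 markers of 293T, among them NEFL, LIN28B and IGF2BP1, did so in 293T. The MDA-MB-231 table listed 5 of the 12 markers of 293T, and 9 of the 12 MDA-MB-231 markers were listed for 293T. Of 13 markers of leukocytes, endothelium and other cell types, each table listed 6, and CD3E, ESR1, VWF, DCN and ALB were listed in neither. The highest of these in the controls of both lines was COL1A1, at 17.1 to 21.1 CPM in MDA-MB-231 and 36.8 to 39.7 CPM in 293T. Among the others listed in MDA-MB-231, PECAM1 stood at 7.46 to 8.17 CPM and CD14 at 6.80 to 7.12 CPM in the controls. In 293T CDH1 stood at 8.56 to 9.41 CPM. The summed level of the 9 tested MDA-MB-231 markers was 6752 to 8674 CPM with KDM5A shRNA and 8700 to 8798 CPM with shControl in MDA-MB-231, and 1049 to 1287 CPM with KDM5A shRNA and 1484 to 1494 CPM with shControl in 293T. The 5 tested 293T markers summed to 137 to 204 CPM with KDM5A shRNA and 342 to 369.5 CPM with shControl in MDA-MB-231, and to 1627 to 1878 CPM with KDM5A shRNA and 1655 to 1710.0 CPM with shControl in 293T. MARCKSL1 spanned 59.3 to 273 CPM over the MDA-MB-231 libraries and carried most of that fall, while CKB spanned 62.2 to 81.7 CPM and the other 3 reached at most 14 CPM. The 4 tested markers of other cell types summed to 33.0 to 38.1 CPM with KDM5A shRNA and 34.9 to 38.5 CPM with shControl in MDA-MB-231, and to 42.7 to 47.5 CPM with KDM5A shRNA and 39.3 to 43.6 CPM with shControl in 293T. The part of the marker shifts in the results below was not tested. In these bulk libraries, fewer cells with a transcript and less of the transcript per cell cannot be told apart.

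KDM5A itself (GRCh38, chr12:280129-389454, minus strand) was measured first. In MDA-MB-231 it stood at 17.6, 19 and 18.4 CPM with shKDM5A-1, 21.2, 20.1 and 20.4 CPM with shKDM5A-2 and 60.3, 53.6 and 51.7 CPM with shControl. In 293T it stood at 25.9, 25.8 and 24.5 CPM with shKDM5A-1, 29.7, 31.4 and 29.8 CPM with shKDM5A-2 and 62.8, 64.2 and 63.4 CPM with shControl. All shKDM5A libraries lay below every shControl library of their line. The log2 fold changes were -1.59 ± 0.06 and -1.42 ± 0.06 in MDA-MB-231 and -1.32 ± 0.05 and -1.07 ± 0.05 in 293T. The knockdown was deeper in MDA-MB-231, with a difference of -0.31 ± 0.06 (SE, edgeR adjusted p = 8.41e-05). How far this deeper knockdown bears on the differences of other genes was not tested.

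The other KDM5 genes moved little. KDM5B, a family member much studied in breast cancer, fell in MDA-MB-231 with log2 fold changes of -0.15 and -0.27, while in 293T its change was 0.13 with shKDM5A-1 and -0.10 with shKDM5A-2. KDM5C, the X-linked member, fell in MDA-MB-231 with -0.25 and -0.11, and in 293T had -0.02 (edgeR adjusted p = 0.511) and -0.09, the second of which was called. Of the HIF prolyl hydroxylases, EGLN3 differed most between the lines. In MDA-MB-231 it stood at 7.55, 6.12 and 6.25 CPM with shKDM5A-1, 5.36, 4.72 and 5.58 CPM with shKDM5A-2 and 15, 13 and 13 CPM with shControl. Its 293T levels were 14.2, 12.6 and 12.8 CPM with shKDM5A-1, 14.5, 14.5 and 14.2 CPM with shKDM5A-2 and 14.8, 15.7 and 15.3 CPM with shControl. Knockdown and control libraries did not overlap in either line, and in 293T they lay close together. EGLN3 is itself a target of HIF, and its difference was -1.06 ± 0.11 (SE, edgeR adjusted p = 1.01e-10). EGLN1, the main HIF hydroxylase, had -0.36 and -0.33 in MDA-MB-231 and -0.19 and -0.06 in 293T. EGLN2, the hydroxylase that gives the series its subject, had -0.12 and -0.09 in MDA-MB-231, and 0.04 and 0.17 in 293T, with a difference of -0.21 ± 0.05 (SE, edgeR adjusted p = 0.00153). Of its annotated exon bases 30.6% lie in a readthrough transcript with RAB4B, so its counts are uncertain.

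Across all genes, KDM5A knockdown moved more genes, and moved them further, in MDA-MB-231. The difference between lines was called for 6601 genes (44.7%), of which 3358 were higher in MDA-MB-231 (22.7% of the genes tested) and 3243 lower (22.0%). The difference was called for each shRNA alone, with the same sign, for 3244 of them. It reached at least 2-fold for 209 genes in the higher direction and 213 in the lower. In MDA-MB-231, 2405 genes rose with both shRNAs (16.3%) and 2352 fell (15.9%). In 293T, 1138 genes rose (7.71%) and 995 fell (6.74%). The median absolute effect was 0.21 in MDA-MB-231 and 0.12 in 293T on the log2 scale. Genes that responded in both lines with the same sign numbered 853, which is 17.9% of the 4757 genes that responded in MDA-MB-231 and 40.0% of the 2133 that responded in 293T. The difference was called for 426 of these 853, and the effect was larger in MDA-MB-231 for 380 of the 426. The mean effects of all 14767 genes correlated across genes with r = 0.13 (Spearman's rho 0.25), a description over genes that share the 18 libraries and are not independent.

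**Figure D1:**
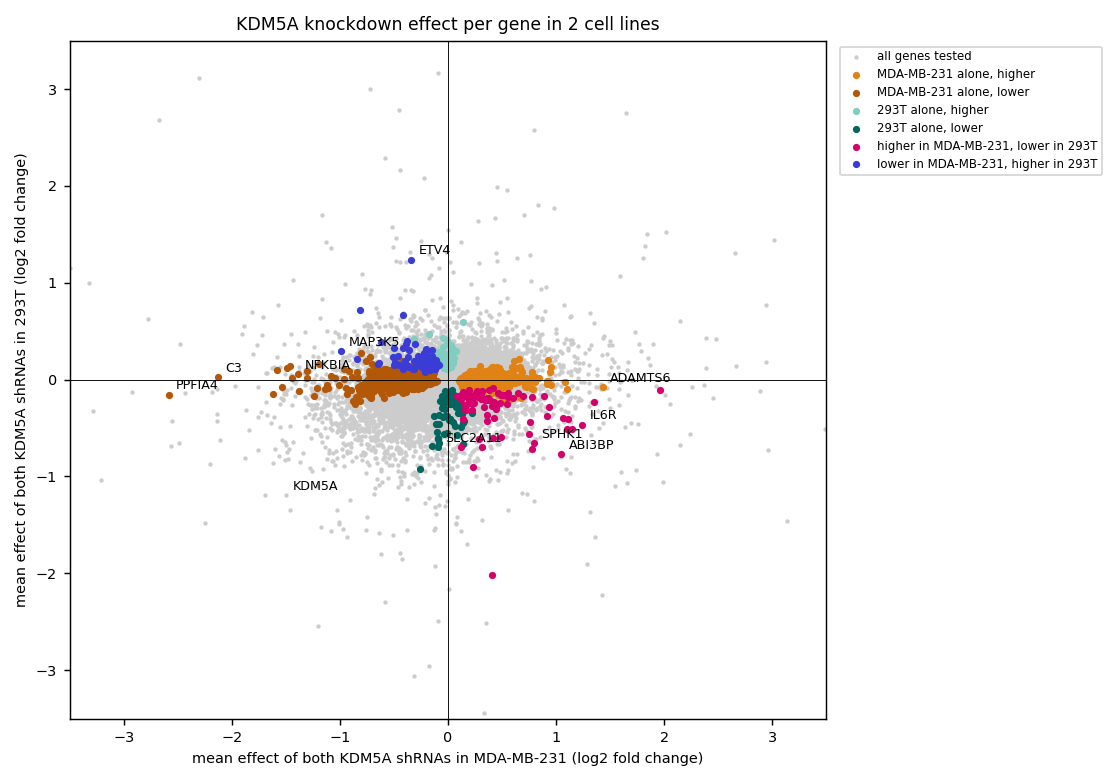
Mean log2 fold change of both KDM5A shRNAs over shControl per gene, in MDA-MB-231 (x axis) and in 293T (y axis), for the genes tested, with opposite and line-restricted genes in colour. In all, 43 genes lie beyond the axes, which end at 3.5. The restricted genes hug the axes because their rule required it, and the 160 opposite genes lie in the upper left and lower right.

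Opposite responses, in which both shRNAs were called in both lines with opposite signs, were found for 160 genes. Of these, 85 rose in MDA-MB-231 and fell in 293T (0.576% of the genes tested), and 75 fell in MDA-MB-231 and rose in 293T (0.508%). The median difference was 0.59 for those that rose in MDA-MB-231 and -0.44 for those that fell. With all 4 fold changes required to reach 1.2-fold, the counts were 13 and 5. With DESeq2 in place of edgeR, they were 46 and 53, and with an adjusted p under 0.01 they were 39 and 28. The genes that rose in MDA-MB-231 and fell in 293T included SPHK1, DDIT3, IL6R, ABI3BP, LAMA1, ADAMTS7, CPM and TBC1D30. The genes that fell in MDA-MB-231 and rose in 293T included ARRDC3, SMAD6, MAP3K5, ETV4, ADM, DCAF6, AUH and ACYP1.

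SPHK1 (chr17:76376584-76387860, plus strand), the kinase that makes the lipid signal sphingosine 1-phosphate, had the largest minimum effect over the 4 comparisons. In MDA-MB-231 it stood at 31.6, 32.4 and 32.2 CPM with shKDM5A-1, 36.1, 37.3 and 38.3 CPM with shKDM5A-2 and 20.6, 18.7 and 20.3 CPM with shControl. Its 293T levels were 11.3, 11 and 11.2 CPM with shKDM5A-1, 15, 11.6 and 13.9 CPM with shKDM5A-2 and 16.7, 20.1 and 21.2 CPM with shControl. The control levels of the lines overlapped, and the knockdown libraries lay above all controls in MDA-MB-231 and below all controls in 293T. The log2 fold changes were 0.69 ± 0.07 and 0.91 ± 0.07 in MDA-MB-231 and -0.80 ± 0.08 and -0.52 ± 0.08 in 293T, with a difference of 1.46 ± 0.09 (SE, edgeR adjusted p = 9.94e-16).

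DDIT3 (chr12:57516588-57521737, minus strand) encodes CHOP, a transcription factor of the integrated stress response. In MDA-MB-231 it stood at 16.4, 15 and 16.1 CPM with shKDM5A-1, 23.7, 22.3 and 24.7 CPM with shKDM5A-2 and 11.6, 12.1 and 10.7 CPM with shControl. The 293T libraries held 15.8, 18.3 and 16.5 CPM with shKDM5A-1, 16.1, 16.2 and 15.4 CPM with shKDM5A-2 and 21.5, 23 and 22.1 CPM with shControl. The shKDM5A-1 libraries of both lines lay between 15 and 18.3 CPM, while the controls of the lines were apart. Of its exon bases 31.6% overlap annotated transcripts of MARS and MBD6, and since the labels do not say that the counts used strand, its value is uncertain.

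IL6R (chr1:154405193-154469450, plus strand), the receptor subunit that binds interleukin 6, stood in MDA-MB-231 at 5.71, 5.58 and 5.28 CPM with shKDM5A-1, 3.25, 3.37 and 3.38 CPM with shKDM5A-2 and 1.56, 2.54 and 1.40 CPM with shControl. In 293T it stood at 8.55, 9.60 and 8.46 CPM with shKDM5A-1, 7.66, 8.82 and 7.66 CPM with shKDM5A-2 and 11.5, 12.2 and 11.2 CPM with shControl. Knockdown and control libraries did not overlap in either line, and the difference was 1.71 ± 0.17 (SE, edgeR adjusted p = 1.61e-10). BCL2 (chr18:63123346-63320128, minus strand), the founding inhibitor of apoptosis, followed the same pattern. It stood at 17.3 to 19.97 CPM with the KDM5A shRNAs and 13.5 to 14.5 CPM with shControl in MDA-MB-231, and at 8.65 to 10.5 CPM with the KDM5A shRNAs and 10.9 to 12.6 CPM with shControl in 293T.

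LAMA1 (chr18:6941744-7117814, minus strand), a laminin chain of basement membranes, stood in MDA-MB-231 at 2.38, 2.36 and 2.36 CPM with shKDM5A-1, 3.83, 4.66 and 4.45 CPM with shKDM5A-2 and 1.63, 1.78 and 1.006 CPM with shControl. In 293T, where it is far more abundant, it stood at 34.2, 31.6 and 31.7 CPM with shKDM5A-1, 42.1, 40.6 and 41.6 CPM with shKDM5A-2 and 51.6, 52.9 and 52.4 CPM with shControl. Knockdown and control libraries were again apart in both lines. ABI3BP, a secreted matrix protein, had log2 fold changes of 0.50 and 1.60 in MDA-MB-231 and -1.18 and -0.36 in 293T. ADAMTS7, a secreted metalloprotease, had 0.55 and 0.44 in MDA-MB-231 and -0.68 and -0.51 in 293T. The gene CPM, which encodes the membrane enzyme carboxypeptidase M and shares its name with the unit, had 0.74 and 1.10 in MDA-MB-231 and -0.33 and -0.41 in 293T. TBC1D30, a regulator of Rab GTPases, had 0.59 and 0.92 in MDA-MB-231 and -0.51 and -0.61 in 293T.

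ARRDC3 (chr5:91368724-91383359, minus strand), an arrestin-like adaptor that sends membrane receptors to lysosomes, led the genes that fell in MDA-MB-231 and rose in 293T. In MDA-MB-231 it stood at 47.5, 50.3 and 46.4 CPM with shKDM5A-1, 45.5, 43.9 and 45.2 CPM with shKDM5A-2 and 72.4, 69.9 and 71.6 CPM with shControl. Its 293T levels were 14.2, 12.8 and 14.6 CPM with shKDM5A-1, 12.9, 14 and 12.5 CPM with shKDM5A-2 and 9.99, 11 and 9.89 CPM with shControl. The knockdown and control libraries did not overlap in either line. The log2 fold changes were -0.57 ± 0.05 and -0.67 ± 0.05 in MDA-MB-231 and 0.42 ± 0.07 and 0.34 ± 0.07 in 293T, with a difference of -1.003 ± 0.07 (SE, edgeR adjusted p = 3.82e-14).

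The promoters of the leading gene of each opposite group are shown, since KDM5A can bind DNA through its ARID domain, for which the sequence CCGCCC is known. The windows are from RefSeq on build GRCh38.p14 and hold 250 bases before and 50 after the gene start that RefSeq gives, which can differ from the GENCODE gene bounds printed with each gene, as it does for SPHK1 and KDM3A, with CCGCCC on either strand in capitals. They lie at chr17:76382954-76383253 (plus strand) for SPHK1 and at chr5:91383268-91383567 (minus strand) for ARRDC3.
SPHK1: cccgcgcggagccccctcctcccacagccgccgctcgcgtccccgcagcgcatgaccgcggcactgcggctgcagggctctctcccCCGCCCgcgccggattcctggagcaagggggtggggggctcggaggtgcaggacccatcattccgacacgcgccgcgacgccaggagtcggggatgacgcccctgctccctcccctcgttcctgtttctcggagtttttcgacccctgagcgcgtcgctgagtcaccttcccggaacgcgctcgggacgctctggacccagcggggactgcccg
ARRDC3: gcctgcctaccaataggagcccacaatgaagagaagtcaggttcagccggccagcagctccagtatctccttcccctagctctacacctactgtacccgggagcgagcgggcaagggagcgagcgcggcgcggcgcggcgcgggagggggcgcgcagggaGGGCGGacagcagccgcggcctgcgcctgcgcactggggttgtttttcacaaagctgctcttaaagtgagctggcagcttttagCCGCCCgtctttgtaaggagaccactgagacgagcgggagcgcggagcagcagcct
CCGCCC is also the core of the Sp1 site and is common: it stood in 44.6% of all 27305 promoters of the table and in 71.0% of the 10448 promoters found for the 14767 genes tested. It stood in 44 of the 70 promoters found for genes that rose in MDA-MB-231 and fell in 293T (62.9%) and in 49 of the 62 found for genes that fell in MDA-MB-231 and rose in 293T (79.0%). A match is a description of these letters and not a binding site.

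MAP3K5 (chr6:136557047-136792518, minus strand), the stress kinase ASK1, stood in MDA-MB-231 at 18.1, 16.8 and 16.1 CPM with shKDM5A-1, 14.2, 15 and 15.3 CPM with shKDM5A-2 and 29.9, 32.2 and 32.3 CPM with shControl. The 293T libraries held 19.8, 18.2 and 18.8 CPM with shKDM5A-1, 16.9, 18.6 and 17 CPM with shKDM5A-2 and 15.7, 14.6 and 14.2 CPM with shControl. Its level in MDA-MB-231 controls was above every 293T library, and with the KDM5A shRNAs both lines lay between 14.2 and 19.8 CPM. SMAD6 (chr15:66702228-66782848, plus strand), an inhibitor of BMP signalling, stood at 19.3 to 21.1 CPM with the KDM5A shRNAs and 27.5 to 29.9 CPM with shControl in MDA-MB-231, and at 20.1 to 23.5 CPM with the KDM5A shRNAs and 16.1 to 17.5 CPM with shControl in 293T. ETV4 (chr17:43527844-43579620, minus strand), an ETS factor downstream of ERK, had log2 fold changes of -0.40 and -0.28 in MDA-MB-231 and 0.82 and 1.66 in 293T, where its level was only 0.979 to 1.36 CPM with shControl.

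ADM, the hypoxia-inducible vasodilator adrenomedullin, had log2 fold changes of -0.23 and -0.54 in MDA-MB-231 and 0.40 and 0.33 in 293T. DCAF6, a substrate receptor of a CUL4 ubiquitin ligase, had -0.31 and -0.52 in MDA-MB-231 and 0.29 and 0.37 in 293T. AUH, a mitochondrial enzyme of leucine breakdown, had -0.71 and -0.31 in MDA-MB-231 and 0.23 and 0.23 in 293T. ACYP1, an acylphosphatase, had -0.27 and -0.46 in MDA-MB-231 and 0.25 and 0.36 in 293T, though 11.1% of its exon bases overlap ZC2HC1C and its value is uncertain.

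**Figure D2:**
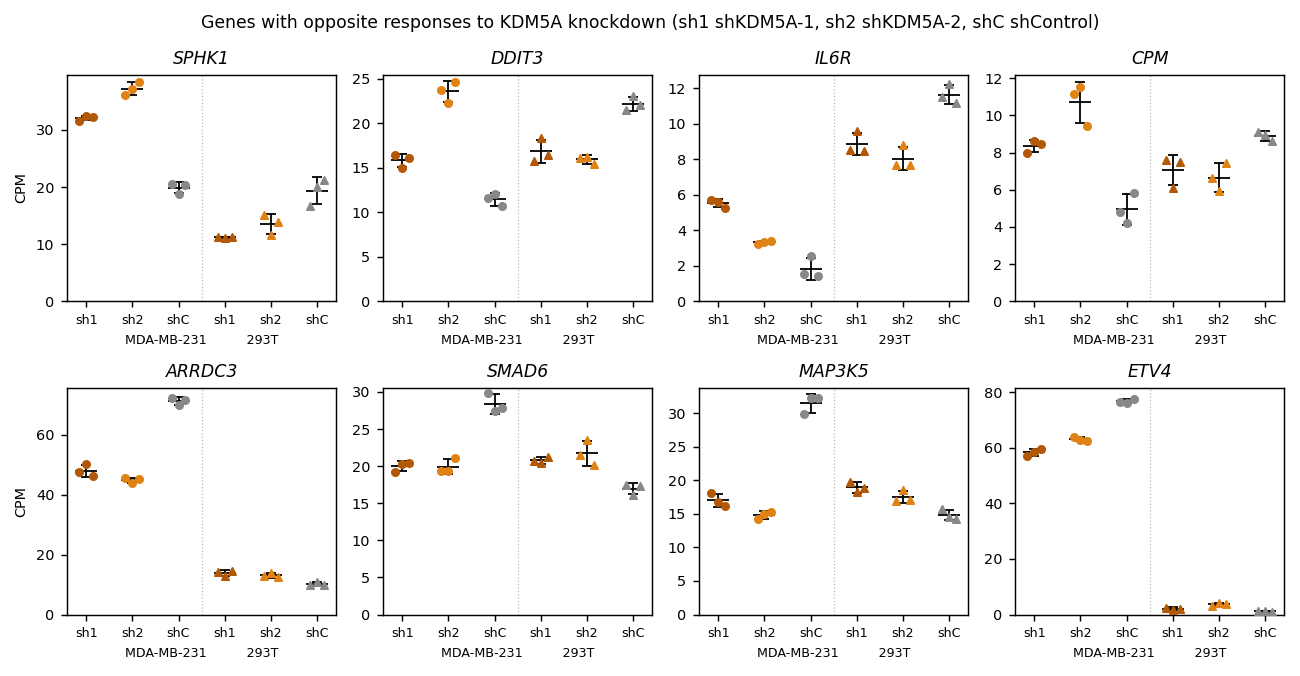
Level in CPM of 8 genes with opposite responses, with each point 1 library, bars the mean and SD of 3 libraries, circles MDA-MB-231 and triangles 293T. SPHK1, DDIT3, IL6R and CPM rise with knockdown in MDA-MB-231 and fall in 293T, and ARRDC3, SMAD6, MAP3K5 and ETV4 do the reverse.

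Responses in MDA-MB-231 alone were more common. A gene was counted where both shRNAs were called with the same sign in MDA-MB-231, neither was called in 293T, the difference itself was called and each line had an average log2 CPM of at least 1. This gave 498 genes that rose (3.37%) and 490 that fell (3.32%). A further 34 and 96 met all but the minimum level. The median difference was 0.31 for those that rose and -0.38 for those that fell. A difference of at least 1.5-fold was seen for 50 of those that rose and 103 of those that fell. That neither shRNA was called in 293T does not show that the gene did not respond there; with a mean effect in 293T of at most 0.2 on the log2 scale, 494 and 485 were left. Of the genes that rose, 57.6% had the higher level in MDA-MB-231, and of those that fell 60.2%, against 51.8% of all 11717 genes at this minimum level.

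The genes that rose in MDA-MB-231 alone with the largest smaller effect of the 2 shRNAs were ADAMTS6, CRADD, FEM1A, KCNAB2, SEMA7A and PLCH1. ADAMTS6 (chr5:65148736-65481920, minus strand), a secreted metalloprotease, stood in MDA-MB-231 at 15.3, 15.2 and 15.5 CPM with shKDM5A-1, 22.6, 22.1 and 24.3 CPM with shKDM5A-2 and 7.48, 7.21 and 6.31 CPM with shControl. In 293T all 9 libraries lay between 3.48 and 4.20 CPM, and the groups overlapped. The difference was 1.51 ± 0.13 (SE, edgeR adjusted p = 3.27e-12). SEMA7A (chr15:74409289-74433958, minus strand), a membrane-anchored semaphorin that signals through integrins, stood in MDA-MB-231 at 95.0, 95.3 and 101 CPM with shKDM5A-1, 92.5, 96.6 and 91.8 CPM with shKDM5A-2 and 49.3, 52.6 and 50.02 CPM with shControl. In 293T all 9 libraries lay between 4.76 and 5.24 CPM, with log2 fold changes of -0.03 ± 0.10 and -0.00 ± 0.10 (SE). Both shRNAs thus gave nearly the same rise in MDA-MB-231, where SEMA7A was about as high with one as with the other.

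CRADD, an adaptor of caspase 2, stood at 13.1 to 15.4 CPM with the KDM5A shRNAs and 6.54 to 7.26 CPM with shControl in MDA-MB-231, and at 5.19 to 7.06 CPM with the KDM5A shRNAs and 5.92 to 6.76 CPM with shControl in 293T. KCNAB2, a potassium channel subunit, had log2 fold changes of 0.90 and 0.93 in MDA-MB-231 and -0.14 and 0.05 in 293T. PLCH1, a phospholipase C that is more abundant in 293T, had 0.83 and 1.03 in MDA-MB-231 and -0.10 and 0.07 in 293T. FEM1A, a substrate receptor of a CUL2 ubiquitin ligase, had 0.94 and 0.98 in MDA-MB-231 and 0.19 and 0.08 in 293T, and 37.2% of its exon bases overlap another annotated transcript, so its value is uncertain.

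The genes that fell in MDA-MB-231 alone were led by PPFIA4, ADAM8, RNASE4, C3, ZC3H12A and DAPK2. C3 (chr19:6677704-6730562, minus strand), the central component of complement, stood in MDA-MB-231 at 171, 168 and 171 CPM with shKDM5A-1, 46.2, 48.5 and 47.8 CPM with shKDM5A-2 and 399.9, 392 and 391 CPM with shControl. In 293T all 9 libraries lay between 6.38 and 8.22 CPM, with log2 fold changes of 0.05 ± 0.09 and -0.00 ± 0.09 (SE). The 3 groups of MDA-MB-231 were far apart, with shKDM5A-2 lowest, and the difference was -2.15 ± 0.08 (SE, edgeR adjusted p = 8.08e-24). ADAM8 (chr10:133262403-133276868, minus strand), a membrane metalloprotease linked to invasion, stood in MDA-MB-231 at 178, 180.1 and 173 CPM with shKDM5A-1, 182, 180.1 and 179 CPM with shKDM5A-2 and 445, 437 and 443 CPM with shControl. Its level in 293T was 1.45 to 2.69 CPM over the 9 libraries. For ADAM8 the shRNAs gave overlapping levels, unlike for C3.

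ZC3H12A, the RNase regnase-1 that degrades inflammatory mRNAs, had log2 fold changes of -1.20 and -1.88 in MDA-MB-231 and -0.23 and 0.08 in 293T. PPFIA4, a liprin scaffold protein, stood at 2.55 to 3.33 CPM with shKDM5A-1, 0.638 to 0.886 CPM with shKDM5A-2 and 8.31 to 10.3 CPM with shControl in MDA-MB-231, and at 13.9 to 16.1 CPM with the KDM5A shRNAs and 15.8 to 17.6 CPM with shControl in 293T. DAPK2, a death-associated kinase, had -1.44 and -1.17 in MDA-MB-231 and 0.20 and -0.16 in 293T. RNASE4, a secreted ribonuclease, had -1.23 and -1.65 in MDA-MB-231 and 0.20 and -0.18 in 293T, and shares 25.8% of its exon bases with ANG, so its value is uncertain.

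Responses in 293T alone were few and small. They numbered 69 genes that rose (0.467%) and 60 that fell (0.406%), with median differences of -0.20 and 0.35. Only 2 and 6 of them differed by at least 1.5-fold between lines, 35 and 29 had the difference called for each shRNA alone, and DESeq2 found 68 and 35. Among the genes that rose were DOK3, TMEM251, MAP2K6 and MSRB1, and among those that fell SLC2A11, ZNF551, ZSCAN18, MBNL2 and ARPIN.

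DOK3 (chr5:177501907-177511274, minus strand) encodes an adaptor of tyrosine kinase signalling. In MDA-MB-231 the KDM5A shRNA libraries lay between 9.98 and 11.3 CPM and the shControl libraries between 10.7 and 11.6 CPM. The 293T libraries held 5.87, 6.75 and 7.59 CPM with shKDM5A-1, 7.26, 7.97 and 6.51 CPM with shKDM5A-2 and 5.92, 4.91 and 4.71 CPM with shControl. The lowest shKDM5A-1 library of 293T lay just under the highest control, so the groups overlapped in both lines. MAP2K6, an activator of p38 kinases, stood in MDA-MB-231 at 2.20 to 2.67 CPM with the KDM5A shRNAs and 2.79 to 3.29 CPM with shControl, and in 293T at 15.6 to 18.3 CPM with the KDM5A shRNAs and 11 to 13.3 CPM with shControl. The lower levels in MDA-MB-231 did not pass the test (edgeR adjusted p = 0.110 and 0.132). TMEM251, needed to tag lysosomal enzymes, had log2 fold changes of -0.06 and 0.04 in MDA-MB-231 and 0.37 and 0.36 in 293T. MSRB1, a selenoprotein that repairs oxidised methionine, had 0.11 and -0.14 in MDA-MB-231 and 0.28 and 0.54 in 293T, and its difference with shKDM5A-1 alone was not called (edgeR adjusted p = 0.295).

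ARPIN (chr15:89895006-89912956, minus strand) encodes an inhibitor of the Arp2/3 complex, which builds branched actin. In MDA-MB-231 it stood at 33.3, 35.5 and 34.9 CPM with shKDM5A-1, 32.9, 30.9 and 35.5 CPM with shKDM5A-2 and 37.1, 35.0 and 35.7 CPM with shControl. Its 293T levels were 47.8, 44.9 and 46.1 CPM with shKDM5A-1, 43.5, 44.7 and 44.6 CPM with shKDM5A-2 and 64.9, 63.4 and 58.5 CPM with shControl. The groups overlapped in MDA-MB-231 and were apart in 293T, and the difference was 0.38 ± 0.06 (SE, edgeR adjusted p = 2.10e-06). MBNL2, a splicing regulator, had log2 fold changes of -0.16 and -0.04 in MDA-MB-231 and -0.60 and -0.48 in 293T. SLC2A11, a sugar transporter, had -0.24 and 0.05 in MDA-MB-231 and -0.77 and -0.63 in 293T. The zinc finger gene ZNF551 had -0.05 and -0.14 in MDA-MB-231 and -0.63 and -0.58 in 293T. ZSCAN18, another zinc finger gene of chromosome 19, had -0.03 and 0.01 in MDA-MB-231 and -0.49 and -0.61 in 293T.

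**Figure D3:**
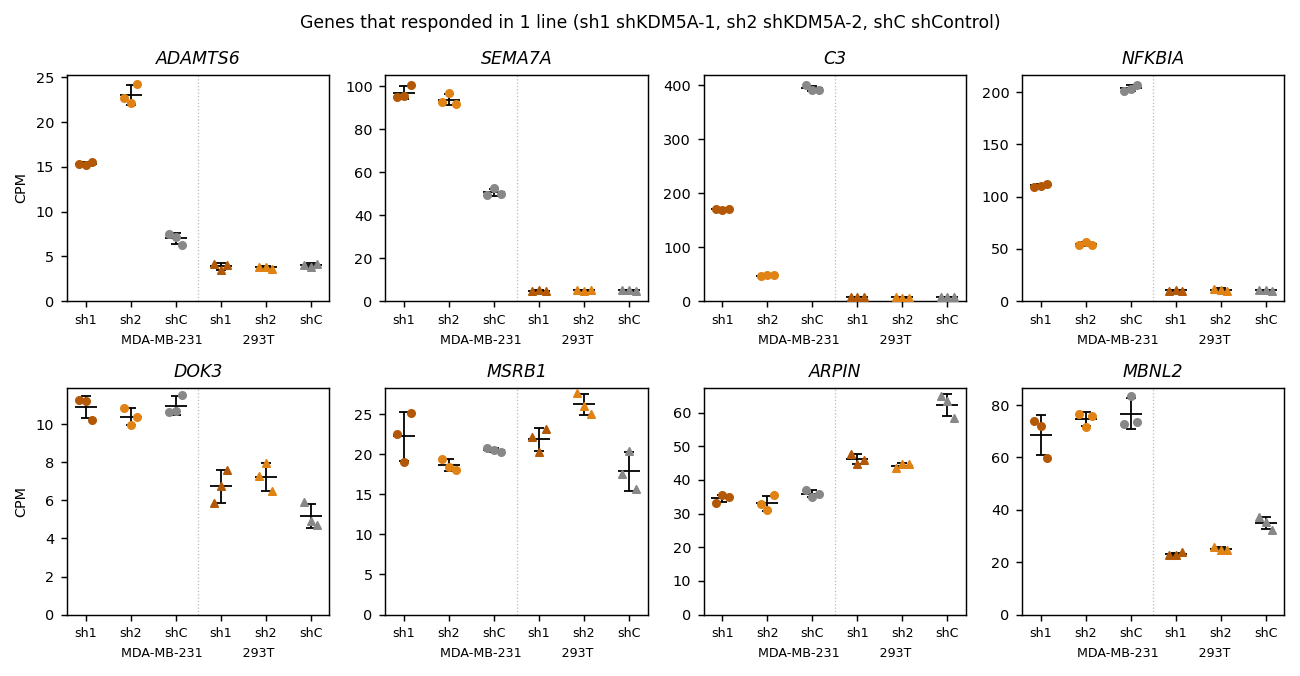
Level in CPM of 8 genes that responded in 1 line, with each point 1 library, bars the mean and SD of 3 libraries, circles MDA-MB-231 and triangles 293T. ADAMTS6, SEMA7A, C3 and NFKBIA change with knockdown in MDA-MB-231, where they are also more abundant, and the changes of DOK3, MSRB1, ARPIN and MBNL2 in 293T are smaller.

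The differences were also read by gene lists. The lists are described by counts and medians beside those of all genes tested, whose median difference was 0.01. NF-kB is a family of transcription factors that drives inflammatory genes and is switched off by its own targets, such as the inhibitor NFKBIA. Of 16 tested genes for NF-kB subunits and feedback, 9 had a lower difference (56.2%, against 22.0% of all genes) and 0 a higher one. The 9 include ICAM1, which did not reach an average log2 CPM of 1 in each line. In MDA-MB-231, 10 of the 16 fell with both shRNAs (against 15.9% of all genes) and 0 rose (against 16.3%). In 293T, 1 of the 16 fell (against 6.74% of all genes) and 0 rose (against 7.71%). NFKBIA (chr14:35401511-35404749, minus strand) stood in MDA-MB-231 at 109, 111 and 112 CPM with shKDM5A-1, 53.5, 56.9 and 53.6 CPM with shKDM5A-2 and 201, 203 and 207 CPM with shControl. In 293T it stood at 10.1, 10.9 and 10.2 CPM with shKDM5A-1, 12.2, 11.1 and 9.90 CPM with shKDM5A-2 and 11.2, 10.3 and 9.51 CPM with shControl. It thus fell in MDA-MB-231 to levels still above all 293T libraries, whose groups overlapped, with a difference of -1.44 ± 0.07 (SE, edgeR adjusted p = 2.60e-19). IRAK2 and NFKBIZ, a kinase and a nuclear cofactor of the pathway, had differences of -1.14 and -1.12, and SOD2, the mitochondrial superoxide dismutase, -1.36. TNFAIP3, a deubiquitinase that ends the signal, had -0.75. The subunits RELA and NFKB1 had differences of -0.03 and 0.07, which were not called. RELB fell in both lines, with -0.58 and -0.36 in MDA-MB-231 and -0.54 and -0.85 in 293T. Of 7 tested cytokine genes, 5 had a lower difference (71.4%, against 22.0% of all genes), led by CXCL2 with -2.46, IL32 with -1.38 and CXCL3 with -1.37. These 3 were nearly silent in 293T, with group means of at most 0.532 CPM for CXCL2, 1.35 CPM for IL32 and 0.599 CPM for CXCL3, and passed the filter on low counts through MDA-MB-231, so nothing is read from the count. CXCL2 stood at 9.62 to 14.1 CPM with the KDM5A shRNAs and 29.9 to 34.1 CPM with shControl in MDA-MB-231, but at only 0.215 to 0.602 CPM with the KDM5A shRNAs and 0.097 to 0.322 CPM with shControl in 293T.

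HIF turns on glycolysis and survival genes when oxygen is short, through the core sequences ACGTG and GCGTG. Of 33 tested hypoxia and glycolysis genes, 30 had a lower difference (90.9%, against 22.0%) and 3 a higher one. The 30 include ALDOC, which had group means of at most 1.84 CPM in MDA-MB-231. In MDA-MB-231, 27 of the 33 fell with both shRNAs (against 15.9% of all genes) and 0 rose (against 16.3%). In 293T, 6 of the 33 fell (against 6.74% of all genes) and 3 of the 33 rose (against 7.71%). The median effect was -0.51 in MDA-MB-231 and -0.04 in 293T. The 293T median is of means over both shRNAs, which parted there for some members. ENO2 had -0.29 with shKDM5A-1 and 0.42 with shKDM5A-2 in 293T, and PFKFB4 -0.39 and 0.34, while P4HA1 fell with both (-0.32 and -0.55). A median near 0 in 293T thus does not show that the list did not move there. NDRG1 (chr8:133237171-133302022, minus strand), a stress-responsive gene with the largest difference of the list, stood in MDA-MB-231 at 170.0, 165 and 169.5 CPM with shKDM5A-1, 92.4, 95.6 and 88.7 CPM with shKDM5A-2 and 450.0, 439 and 445 CPM with shControl. Its 293T levels were 153, 149 and 147 CPM with shKDM5A-1, 110.2, 108 and 104 CPM with shKDM5A-2 and 176, 187 and 182 CPM with shControl. It fell in both lines, further in MDA-MB-231, with a difference of -1.32 ± 0.03 (SE, edgeR adjusted p = 5.99e-28). The mitophagy genes BNIP3 and BNIP3L had differences of -0.84 and -0.68, lactate dehydrogenase LDHA -0.75, the collagen crosslinker LOX -0.94 and the glucose transporter SLC2A1 -0.61. The exceptions were STC2, a secreted hormone, with 0.92, and the hexokinases HK1 and HK2, with 0.12 and 0.11. ANKRD37, with -1.26, shares 35.2% of its exon bases with UFSP2 and is uncertain. For the HIF subunits HIF1A and EPAS1, the sign of the difference depended on the shRNA, as described further on.

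KDM3A (chr2:86440647-86492716, plus strand), a hypoxia-inducible demethylase of lysine 9 of histone H3, responded in MDA-MB-231 alone. It stood there at 57.2, 57.2 and 58.1 CPM with shKDM5A-1, 52.6, 52.2 and 51.1 CPM with shKDM5A-2 and 83.4, 89.2 and 82.1 CPM with shControl. The 293T libraries held 61.7, 64.2 and 60.1 CPM with shKDM5A-1, 62.5, 59.4 and 62.1 CPM with shKDM5A-2 and 60.8, 62.2 and 64.9 CPM with shControl. Knockdown and control libraries were apart in MDA-MB-231, where the controls lay above and the knockdown libraries below every 293T library, and they overlapped in 293T, with a difference of -0.61 ± 0.05 (SE, edgeR adjusted p = 1.29e-13).

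The promoters of NFKBIA and KDM3A stand for the NF-kB and the hypoxia list. The windows are of the same build and length as above, at chr14:35404700-35404999 (minus strand) for NFKBIA, with matches to the NF-kB consensus in capitals, and at chr2:86441121-86441420 (plus strand) for KDM3A, with ACGTG or GCGTG in capitals, each on either strand.
NFKBIA: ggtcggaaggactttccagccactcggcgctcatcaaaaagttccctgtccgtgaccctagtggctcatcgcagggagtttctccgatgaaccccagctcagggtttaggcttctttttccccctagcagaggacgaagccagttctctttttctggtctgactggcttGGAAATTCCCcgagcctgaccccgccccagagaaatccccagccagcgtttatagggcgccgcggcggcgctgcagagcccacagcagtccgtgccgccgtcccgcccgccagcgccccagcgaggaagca
KDM3A: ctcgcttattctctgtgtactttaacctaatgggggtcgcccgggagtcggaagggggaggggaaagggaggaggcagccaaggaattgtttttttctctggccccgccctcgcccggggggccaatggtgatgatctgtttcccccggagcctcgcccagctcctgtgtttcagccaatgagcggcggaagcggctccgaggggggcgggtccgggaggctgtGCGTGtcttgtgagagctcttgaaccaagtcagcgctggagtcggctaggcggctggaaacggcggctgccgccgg
The NF-kB consensus stood in 6 of the 14 promoters found for the NF-kB list (42.9%), in 12.9% of those found for the genes tested and in 10.8% of all promoters of the table. ACGTG or GCGTG stood in 23 of the 29 promoters found for the hypoxia list (79.3%), in 64.0% of those found for the genes tested and in 48.4% of all. Both lists hold known targets of NF-kB or HIF. A higher share of these sequences in them therefore says nothing about the response to KDM5A knockdown. Promoters of genes that fell in MDA-MB-231 alone held the NF-kB consensus in 14.5% of 394 cases and those of genes that rose in 9.95% of 402, both near the 12.9% of the genes tested. The list promoters are rich in C and G, with a median of 71.3% for the NF-kB list and 69.7% for the hypoxia list against 65.3% for the genes tested and 58.3% for all, and how far this bears on the shares was not tested.

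**Figure D4:**
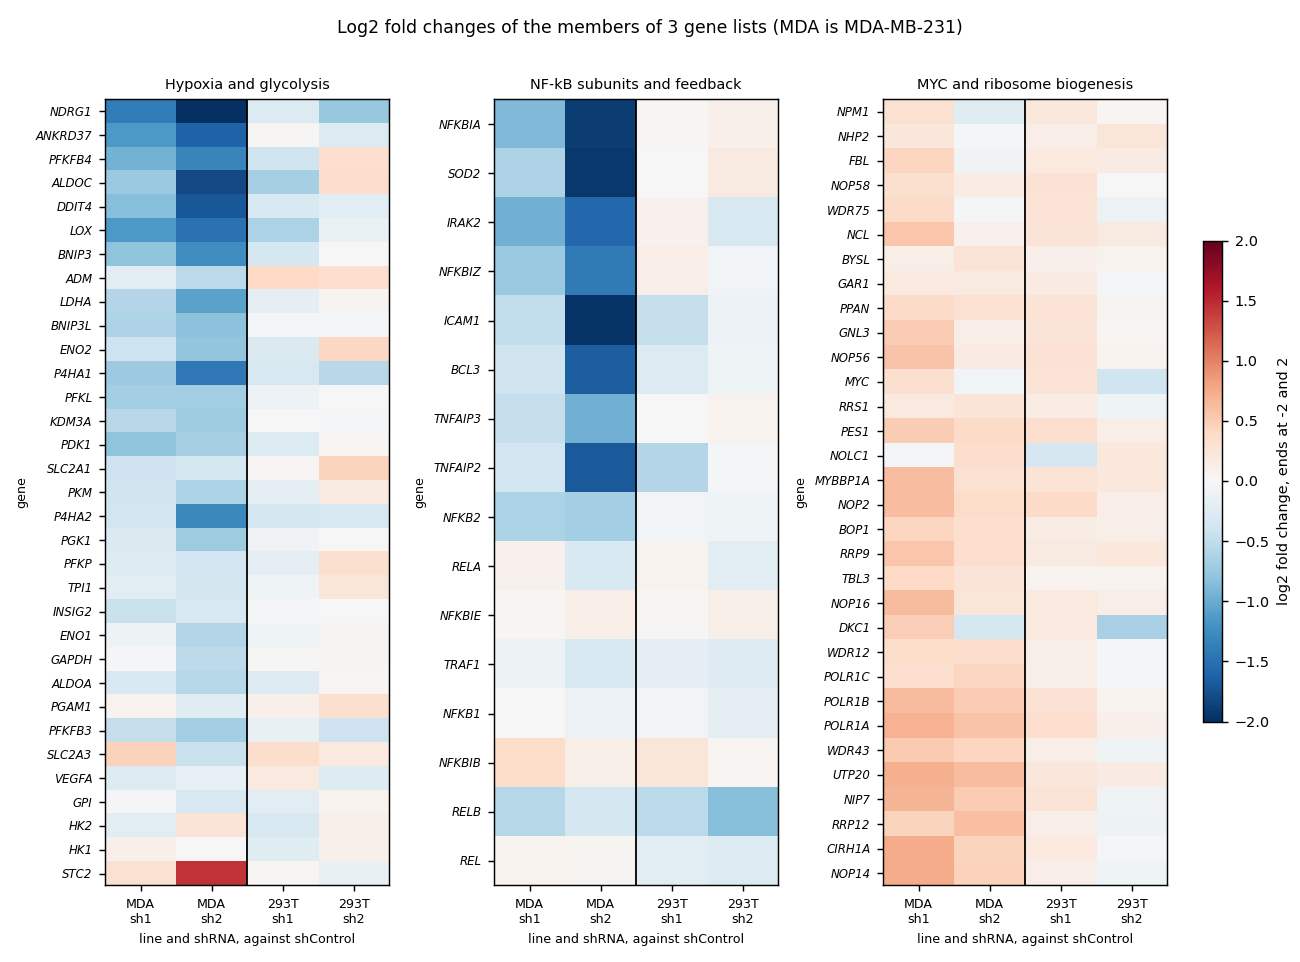
Log2 fold change over shControl with shKDM5A-1 (sh1) and shKDM5A-2 (sh2) in MDA-MB-231 (MDA) and 293T, for the members of 3 lists ordered by the difference between lines, with colours that end at -2 and 2. Hypoxia and NF-kB genes are blue, lower with knockdown, mainly in the MDA-MB-231 columns, and ribosome biogenesis genes are red, higher, most strongly there.

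Most tested integrins and most tested genes of the unfolded protein response and of cholesterol synthesis also had lower differences. Integrins are the receptors that anchor cells to matrix. Of 12 tested, 9 had a lower difference (75.0%, against 22.0% of all genes) and 0 a higher one. The 9 include ITGA10, which had group means of at most 0.507 CPM in 293T, where a response could hardly be measured. ITGA1 stood at 45.0 to 52.9 CPM with the KDM5A shRNAs and 112 to 119.8 CPM with shControl in MDA-MB-231, and at 9.65 to 15.3 CPM with the KDM5A shRNAs and 13.1 to 14.2 CPM with shControl in 293T. ITGB1, the common beta chain, fell in both lines and further with shKDM5A-2, by log2 fold changes of -0.38 and -1.55 in MDA-MB-231 and -0.50 and -1.29 in 293T. Of 25 tested genes of the unfolded protein response, 18 had a lower difference (72.0%, against 22.0% of all genes) and 0 a higher one. Among them were PDIA4, a disulfide isomerase, at -0.54 and HSPA5, the chaperone BiP, at -0.28. HSPA5 had log2 fold changes of -0.16 and -0.53 in MDA-MB-231, but the shRNAs parted in 293T, with 0.32 and -0.45. With both shRNAs, 18 of the 25 fell and 0 rose in MDA-MB-231 (against 15.9% and 16.3% of all genes). In 293T, 6 of the 25 fell and 2 of the 25 rose (against 6.74% and 7.71%). Of 24 tested cholesterol synthesis genes, 16 had a lower difference (66.7%, against 22.0% of all genes) and 1 a higher one. In MDA-MB-231, 7 of the 24 fell with both shRNAs (against 15.9% of all genes) and 1 of the 24 rose (against 16.3%). Of 29 tested lysosome and autophagy genes, 10 had a lower difference and 6 a higher one (34.5% and 20.7%, against 22.0% and 22.7%). CTSD, the lysosomal protease cathepsin D, stood at 709 to 820.5 CPM with the KDM5A shRNAs and 1229.9 to 1260.0 CPM with shControl in MDA-MB-231, and at 138 to 168 CPM with the KDM5A shRNAs and 141 to 145 CPM with shControl in 293T.

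Immediate early genes answer to growth signals through ERK. Of 31 tested members, 17 had a lower difference (54.8%, against 22.0% of all genes) and 5 a higher one. FOS (chr14:75278774-75282230, plus strand), a subunit of AP-1, stood in MDA-MB-231 at 33.2, 31.0 and 33.0 CPM with shKDM5A-1, 11.2, 9.80 and 10.1 CPM with shKDM5A-2 and 66.3, 68.6 and 68.2 CPM with shControl. In 293T it stood at 4.86, 4.90 and 5.66 CPM with shKDM5A-1, 3.23, 4.46 and 3.30 CPM with shKDM5A-2 and 3.49, 2.90 and 2.47 CPM with shControl. Its levels fell with both shRNAs in MDA-MB-231 and rose with shKDM5A-1 in 293T, and the shKDM5A-2 libraries of 293T overlapped the controls. The difference of -2.44 ± 0.12 (SE, edgeR adjusted p = 6.55e-19) was the largest of the list. ETV5, a relative of ETV4, rose in 293T with 0.97 and 1.47 and had a difference of -1.20. DUSP6, a phosphatase that limits ERK, had -1.09, but it did not reach an average log2 CPM of 1 in each line. Its 293T effects of -0.17 and 0.37 were not called. The interferon-stimulated genes had a lower difference for 8 of 28 tested members (28.6%, against 22.0% of all genes) and a higher one for 3. The 8 include ISG20 and DHX58, with group means of at most 0.928 and 0.666 CPM in 293T. In MDA-MB-231, 13 of the 28 tested fell with both shRNAs (against 15.9% of all genes) and 2 of the 28 rose (against 16.3%).

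In the other direction stood genes of ribosome biogenesis and of mitosis. Of 32 tested MYC and ribosome biogenesis genes, 27 had a higher difference (84.4%, against 22.7% of all genes) and 2 a lower one. With both shRNAs, 25 of the 32 rose in MDA-MB-231 (against 16.3% of all genes) and 14 of the 32 in 293T (against 7.71%). The other members were not called with the same sign for both shRNAs. Among them, DKC1 had 0.50 and -0.34 in MDA-MB-231 and 0.20 and -0.65 in 293T. The median effects were 0.36 in MDA-MB-231 and 0.13 in 293T on the log2 scale. The members with a lower difference were NPM1 with -0.10 and NHP2 with -0.09. POLR1A, the large subunit of RNA polymerase I, had log2 fold changes of 0.70 and 0.57 in MDA-MB-231 and 0.33 and 0.10 in 293T. MYC itself had 0.32 and -0.05 in MDA-MB-231 and 0.28 and -0.40 in 293T. Of 35 tested mitosis and G2/M genes, 26 had a higher difference (74.3%, against 22.7% of all genes) and 0 a lower one. The median difference was 0.21, with median effects of 0.11 in MDA-MB-231 and -0.06 in 293T. With both shRNAs, 10 of the 35 rose and 0 fell in MDA-MB-231 (against 16.3% and 15.9% of all genes). In 293T, 1 of the 35 rose and 4 of the 35 fell (against 7.71% and 6.74% of all genes). For some members the shRNAs parted, as for PLK1 with 0.31 and -0.46 in MDA-MB-231 and -0.09 and -0.69 in 293T. MAD2L1, a spindle checkpoint protein, stood at 105 to 123 CPM with the KDM5A shRNAs and 81.7 to 86.0 CPM with shControl in MDA-MB-231, and at 176 to 189 CPM with the KDM5A shRNAs and 185 to 188 CPM with shControl in 293T. NEK2, a centrosome kinase, was opposite, with 0.25 and 0.28 in MDA-MB-231 and -0.10 and -0.18 in 293T. Of the S phase genes, 9 of 38 had a higher difference (23.7%) and 13 a lower one (34.2%), against 22.7% and 22.0% of all genes. With both shRNAs, 10 of the 38 rose in MDA-MB-231 (against 16.3% of all genes) and 22 of the 38 in 293T (against 7.71%). MCM5, a subunit of the replicative helicase, fell in MDA-MB-231 with -0.09 and -0.27 and rose in 293T with 0.18 and 0.26.

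Targets of YAP and TGF-beta had a higher difference for 13 of 27 tested members (48.1%, against 22.7% of all genes) and a lower one for 8. Among the 13, AXL stood at 0.301 to 0.958 CPM in 293T, and ANKRD1 had group means there of at most 0.682 CPM. Responses of AXL and ANKRD1 in 293T could hardly be measured, so the count is uncertain by these members. CTGF (chr6:131948176-131951373, minus strand), a secreted matrix regulator and YAP target, stood in MDA-MB-231 at 337, 337 and 334 CPM with shKDM5A-1, 502, 502 and 507 CPM with shKDM5A-2 and 184, 189 and 187 CPM with shControl. Its 293T levels were 2.79, 2.80 and 3.5 CPM with shKDM5A-1, 1.66, 2.06 and 1.19 CPM with shKDM5A-2 and 3.44, 2.94 and 2.66 CPM with shControl. It rose with both shRNAs in MDA-MB-231 and fell with shKDM5A-2 in 293T, while the shKDM5A-1 libraries of 293T overlapped the controls. F3, the tissue factor that starts clotting, had 1.69 and 0.74 in MDA-MB-231 and 0.13 and -0.51 in 293T. ATF4 targets had a higher difference for 21 of 31 members (67.7%) and a lower one for 6, against 22.7% and 22.0% of all genes. The 21 include NUPR1, which did not reach an average log2 CPM of 1 in each line. With both shRNAs, 12 of the 31 rose and 5 of the 31 fell in MDA-MB-231 (against 16.3% and 15.9% of all genes). In 293T, 3 of the 31 rose and 6 of the 31 fell (against 7.71% and 6.74% of all genes). SLC7A5, an amino acid transporter, had 0.63 and 0.96 in MDA-MB-231 and 0.34 and 0.10 in 293T. Not all members with a higher difference had it with both shRNAs. ASNS had -0.39 and 0.83 in MDA-MB-231 and 0.22 and -0.31 in 293T, so the sign of its difference depended on the shRNA. CTH had 0.50 and 0.83 in MDA-MB-231 and 0.61 and -0.50 in 293T. Of 10 tested histone genes, 6 had a higher difference (60.0%, against 22.7% of all genes), with HIST1H1C at 0.31 and 1.65 in MDA-MB-231 and -0.45 and 0.34 in 293T. Histone genes share sequence with near-identical copies and their values are uncertain.

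Among the genes closest to KDM5A itself, 26 partners in SIN3 and RB complexes were tested, KDM5A included. Of these, 12 had a lower difference (46.2%, against 22.0% of all genes) and 4 a higher one, with small sizes. HDAC1, the deacetylase of the SIN3 complex, had -0.21 and -0.40 in MDA-MB-231 and -0.09 and 0.17 in 293T. Of 24 tested H3K4 methyltransferases and demethylases, 8 had a higher difference and 7 a lower one (33.3% and 29.2%, against 22.7% and 22.0% of all genes). WDR5, a shared subunit of the methyltransferases, had 0.33 and 0.42 in MDA-MB-231 and -0.05 and 0.16 in 293T. Respiratory chain genes had a lower difference for 20 of 38 (52.6%, against 22.0% of all genes). Mitochondrial ribosome genes had a higher difference for 14 of 32 (43.8%, against 22.7%). The median differences of these lists were -0.10 and 0.11.

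**Figure D5:**
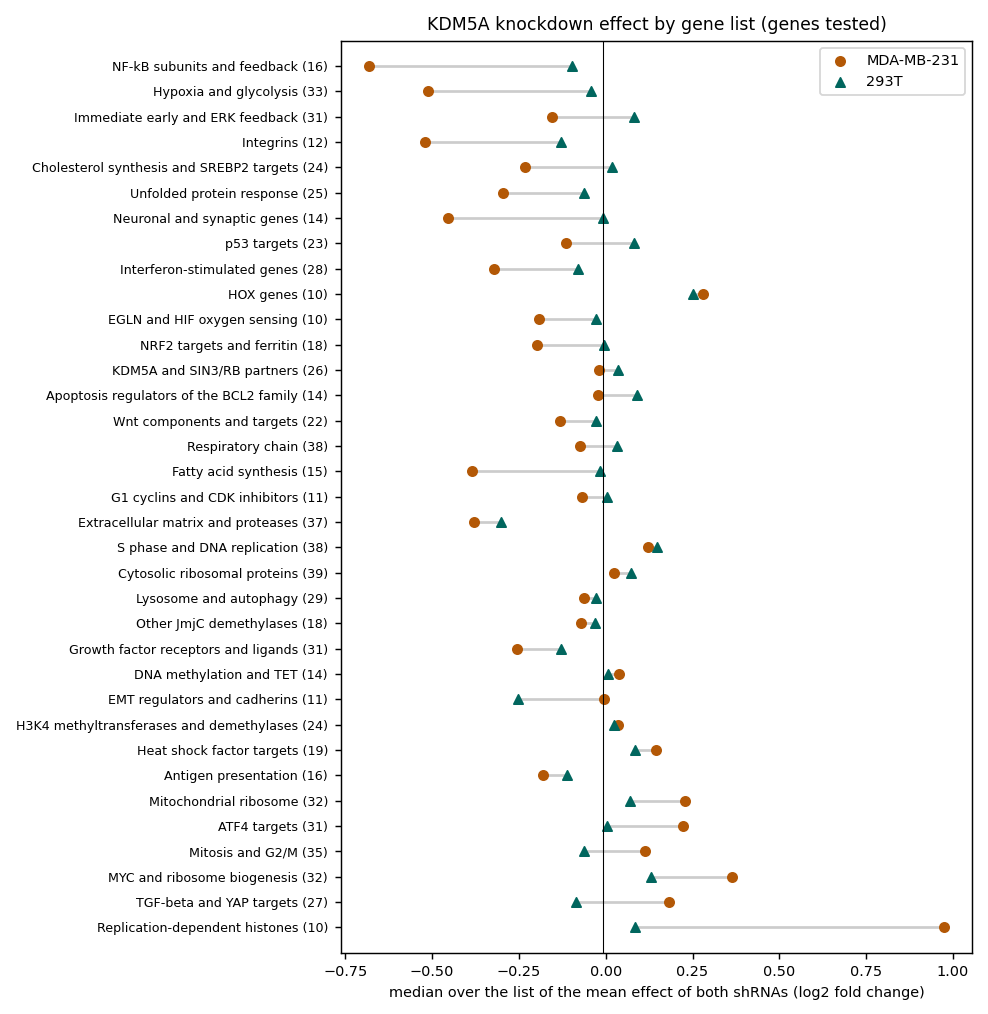
Median over each gene list of the mean effect of both KDM5A shRNAs, as a log2 fold change over shControl, in MDA-MB-231 (circles) and 293T (triangles), for lists with at least 10 genes tested (number in brackets) ordered by the median difference; the vertical line is the median of all genes in MDA-MB-231. The NF-kB list lies at -0.68 in MDA-MB-231 and -0.10 in 293T, the hypoxia list at -0.51 and -0.04.

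The shRNAs did not always give the same difference between the lines. Of the 6601 genes with a called difference, 670 had single differences of opposite sign for shKDM5A-1 and shKDM5A-2. SCD (chr10:100347124-100364834, plus strand), which makes monounsaturated fatty acids, stood in MDA-MB-231 at 669, 660.0 and 639 CPM with shKDM5A-1, 172, 169.7 and 177 CPM with shKDM5A-2 and 614, 629.5 and 634 CPM with shControl. The 293T libraries held 1354 to 1373 CPM with shKDM5A-1, 1223 to 1280.5 CPM with shKDM5A-2 and 1398 to 1421 CPM with shControl. The fall in MDA-MB-231 was thus seen with shKDM5A-2 alone. HIF1A, the oxygen-regulated HIF subunit, had log2 fold changes of 0.17 and -0.61 in MDA-MB-231 and 0.10 and 0.20 in 293T. EPAS1, its relative HIF-2 alpha, had -0.05 and -0.75 in MDA-MB-231 and -0.94 and -0.55 in 293T. The falls of C3, NFKBIA, FOS and NDRG1 in MDA-MB-231 were also larger with shKDM5A-2, while KDM5A itself was slightly lower with shKDM5A-1.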

How the data were processed

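Total RNA of MDA-MB-231 and 293T cells was measured by RNA-seq, 3 libraries for each of 6 groups. The deposited columns are raw counts per the file headers. Of their values 50.4% (MDA-MB-231) and 49.3% (293T) are whole, so they were read as estimated counts per gene deposited by the authors, and rounded. The 18 normalized columns were not used. The submitters' processing notes name, without roles, Salmon 0.1.19, STAR 2.4.2, hg19 and GRCh38. Names turned into dates (20 and 22 rows, 0.200% and 0.209% of counts) were left out, and genes in 1 table only (1.49% of counts in MDA-MB-231, 2.34% in 293T) were not analysed here. Coordinates and exon overlaps come from GENCODE 29 (GRCh38) by symbol, and promoters from RefSeq (GRCh38.p14).

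The 18 libraries were fitted in edgeR 4.0.16 (TMM, a minimum count of 10 in filterByExpr, two-sided robust quasi-likelihood F-test, Benjamini-Hochberg adjustment over 14767 genes) with 1 mean per group, after a test on simulated data. Residuals of equally numbered libraries correlated between -0.102 and 0.103, so the numbers were not read as pairs. Named genes were KDM5A, KDM5B, KDM5C and the EGLN genes, up to 8 opposite genes per direction ranked by the smallest of 4 absolute fold changes, up to 6 restricted genes per line and direction ranked by the smaller one, and up to 3 per list ranked by the difference; Y-linked, antisense and unnamed genes were left out. Not every gene chosen this way is reported here. Other list members were chosen after their values were seen. Of 964 symbols in 37 lists, 806 were tested, 6 under an older symbol. The members, the lists and the comparisons were chosen with earlier results of these data known. Promoters were found for at least 80% of each class or list quoted, but for 70.8% of the genes tested, so a share over the genes tested describes those found. Alternatives were DESeq2 1.42.0, other size factors, other filters and thresholds, single shRNAs, a replicate block and each library left out in turn.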

Additional observations from a re-analysis of the deposited data

Results flagged for a closer look

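Each gene below had a KDM5A effect that differed between MDA-MB-231 and 293T by the interaction test itself (edgeR). Values are differences of log2 fold changes, MDA-MB-231 minus 293T. Groups of 3 libraries were not searched for single libraries that stand apart.

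For the KDM5 and EGLN genes the differences were -0.31 for KDM5A, -0.22 for KDM5B, -0.12 for KDM5C, -0.22 for EGLN1, -0.21 for EGLN2 and -1.06 for EGLN3. Genes that rose in MDA-MB-231 and fell in 293T had 1.46 for SPHK1, 1.31 for TBC1D30, 1.09 for ADAMTS7, 1.201 for DDIT3, 1.71 for IL6R, 1.82 for ABI3BP, 1.66 for LAMA1 and 1.29 for CPM. Genes that fell in MDA-MB-231 and rose in 293T had -1.003 for ARRDC3, -0.83 for SMAD6, -0.74 for DCAF6, -1.58 for ETV4, -0.67 for ACYP1, -1.28 for MAP3K5, -0.75 for ADM and -0.74 for AUH.

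Genes that rose in MDA-MB-231 alone had 1.51 for ADAMTS6, 1.11 for CRADD, 0.82 for FEM1A, 0.96 for KCNAB2, 0.93 for SEMA7A and 0.95 for PLCH1. Those that fell there alone had -2.43 for PPFIA4, -1.40 for ADAM8, -1.46 for RNASE4, -2.15 for C3, -1.46 for ZC3H12A and -1.33 for DAPK2. Genes that rose in 293T alone had -0.66 for PTMAP2, -0.48 for DOK3, -0.38 for TMEM251, -0.74 for MAP2K6, -0.43 for MSRB1 and -0.22 for WDR83. Those that fell in 293T alone had 0.60 for SLC2A11, 0.54 for Metazoa_SRP, 0.51 for ZNF551, 0.54 for ZSCAN18, 0.44 for MBNL2 and 0.38 for ARPIN.

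PTMAP2 is a pseudogene that shares reads with its parent and Metazoa_SRP stands for a family of near-identical RNA genes, so both are uncertain. The call of PTMAP2 was lost without shKDM5A-1 replicate 2, shKDM5A-2 replicate 1 or 2 or shControl replicate 2 of MDA-MB-231, and without shKDM5A-1 replicate 2, shKDM5A-2 replicate 1 or shControl replicate 2 or 3 of 293T, with differences between -0.64 and -0.33. WDR83 lost its call without shControl replicate 3 of MDA-MB-231 (-0.15) or shControl replicate 2 of 293T (-0.20), and Metazoa_SRP without shControl replicate 3 of MDA-MB-231 (0.46).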

How the results depend on the processing

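Size factors by median of ratios, no filter on low counts and a minimum average log2 CPM of 1 kept every count of genes within 1.5 times of its value, with the median difference of all genes between -0.01 and 0.01. Line effects from each line alone, run for the opposite and restricted genes, did so too. DESeq2 moved the opposite genes that rose in MDA-MB-231 to 46 and the genes that fell in 293T alone to 35. An adjusted p under 0.01 left 39 and 28 opposite genes and 299 shared genes that rose. A difference called for each shRNA alone left 1731 higher and 1513 lower differences, and 35 and 29 genes in 293T alone. A minimum of 1.5-fold left 50 and 103 genes in MDA-MB-231 alone and 2 and 6 in 293T alone, and 1.2-fold in all 4 comparisons left 13 and 5 opposite genes. The stricter rules hold fewer genes by construction, and for DESeq2 the cause was not tested.

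The replicate numbers were not read as pairs, and a replicate block within each line gave 3263 higher and 3153 lower differences, 79 and 67 opposite genes, 498 and 501 genes in MDA-MB-231 alone and 69 and 55 in 293T alone. Leaving out each library in turn gave 2940 to 3379 higher and 3003 to 3355 lower differences, 61 to 90 and 61 to 85 opposite genes, 406 to 570 and 440 to 554 genes in MDA-MB-231 alone, 57 to 95 and 42 to 65 in 293T alone, and 422 to 494 and 301 to 375 shared genes that rose and fell. Of 148 named genes, 8 lost their call in at least 1 of these fits. With shKDM5A-1 alone the difference was 0.0773 for HIF1A and 0.11 for SCD, and with shKDM5A-2 alone -0.20 for EPAS1, each with the sign turned round. A further 21 named genes kept their sign but lost their call with shKDM5A-1 alone, and 5 did so with shKDM5A-2 alone. Depth limits the calls for genes near 1 CPM in either line.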
